A study of Mus musculus with 7 samples.

Results

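The genes described here are 38 mouse genes of glucose breakdown and of the response to low oxygen, out of 55487 genes in the deposited table. They were picked by symbol as members of 3 role groups, and each was found in the table by its gene identifier. The groups are 16 glycolytic enzymes, 5 genes that carry glucose and lactate or set the flow through glycolysis, and 17 targets of the hypoxia-inducible factor (HIF) outside glycolysis. All 38 were among the 11444 nuclear protein-coding genes that reached the minimum level for testing.

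The RNA came from primary tumours grown from 4T1-12b(luc) cells, a luciferase-carrying line of the 4T1 mouse mammary carcinoma, in fat pads of BALB/c mice with the genotype label WT. From a volume of about 150 mm3 each tumour received 6 intratumoural injections of 50 µl, and every library carries the time label day 12. The saline group had 3 libraries, the Cont sEV group 1 library and the TIS sEV group 3 libraries, where sEV are small extracellular vesicles and TIS is therapy-induced senescence. All vesicles came from 4T1 cells kept for 72 h in DMSO (Cont) or in nocodazole at 100 ng/ml (TIS), which stops microtubules from forming, and then grown for another 72 h in fresh medium. The vesicle columns of the table are headed CE and NcE. These were taken to mean control and nocodazole vesicles, which no label states outright, and each vesicle comparison depends on it. Replicates are numbered, but nothing says that they were separate animals, so the p-values reflect the spread of these samples alone, and that spread may be technical. The samples were bulk tumour tissue, in which fewer cells of a type and less RNA per cell cannot be told apart.

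Glycolysis splits glucose into pyruvate in the cytosol, and tumour cells commonly reduce much of that pyruvate to lactate, which they export. HIF is a transcription factor whose alpha subunit is hydroxylated and degraded when oxygen is present; in hypoxia it persists, pairs with Arnt and binds a short core motif near its targets. Its targets include most glycolytic enzymes, the glucose transporter Slc2a1 and genes for pH control, mitophagy, collagen maturation and vessel growth, and 4T1 tumours are widely used as a model in which poorly perfused regions arise.

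Values are TPM, a measure of transcript level corrected for transcript length, rescaled here so that the nuclear protein-coding genes of each library sum to 1000000. TPM carries no depth; how deeply the libraries were sequenced is unknown and no counting error can be given. In TIS sEV replicate 2, protein-coding genes held 28.6% of the deposited TPM against 56.8% to 74.7% in the other libraries, and nuclear ribosomal RNA held 22.9% against 0.807% to 2.40%. Relative to saline, the median protein-coding gene lay at -0.30 (log2) in TIS sEV and at -0.45 in Cont sEV, so values are also given relative to that median gene. Epithelial markers (Epcam, 4 keratins, Cdh1, Cldn4 and Cldn7) were present in all 7 libraries.

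Windows upstream of the start site are shown for 5 members of the 3 role groups, because ACGTG, a form of the core motif that HIF binds, lies in each. Only ACGTG was searched for, so other forms of the motif are not marked or counted. They are the 250 bases before the start in the RefSeq promoter table, build GRCm38.p6, written in lower case with every match to ACGTG on either strand in capitals (CACGT is a match on the opposite strand, and CACGTG holds a match on each strand).
Ldha: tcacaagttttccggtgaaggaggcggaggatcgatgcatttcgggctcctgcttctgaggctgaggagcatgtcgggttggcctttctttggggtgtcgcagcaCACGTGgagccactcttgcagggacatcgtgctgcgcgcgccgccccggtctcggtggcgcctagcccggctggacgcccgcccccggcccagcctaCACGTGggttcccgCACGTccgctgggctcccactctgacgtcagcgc
Pgk1: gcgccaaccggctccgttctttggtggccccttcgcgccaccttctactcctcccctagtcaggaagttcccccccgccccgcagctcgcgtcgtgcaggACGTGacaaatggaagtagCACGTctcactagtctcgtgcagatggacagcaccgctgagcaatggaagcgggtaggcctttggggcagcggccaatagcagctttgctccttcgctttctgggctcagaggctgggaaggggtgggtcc
Slc2a1: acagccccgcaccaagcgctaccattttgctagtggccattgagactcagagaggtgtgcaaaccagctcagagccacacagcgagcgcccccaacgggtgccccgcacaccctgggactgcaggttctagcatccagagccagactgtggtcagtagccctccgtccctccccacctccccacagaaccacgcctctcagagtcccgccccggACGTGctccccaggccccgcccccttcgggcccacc
Car9: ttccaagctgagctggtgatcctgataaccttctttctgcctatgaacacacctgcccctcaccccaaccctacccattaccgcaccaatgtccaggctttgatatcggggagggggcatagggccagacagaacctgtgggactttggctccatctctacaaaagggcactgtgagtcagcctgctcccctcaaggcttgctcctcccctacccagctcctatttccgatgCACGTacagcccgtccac
Bnip3: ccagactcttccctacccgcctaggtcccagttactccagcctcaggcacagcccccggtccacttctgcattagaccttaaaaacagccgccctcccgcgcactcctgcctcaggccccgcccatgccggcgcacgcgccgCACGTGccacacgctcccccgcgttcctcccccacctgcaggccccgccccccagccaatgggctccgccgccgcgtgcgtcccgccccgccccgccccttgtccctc
The windows lie at chr7:46845554-46845803 on the plus strand, chrX:106186850-106187099 on the plus strand, chr4:119108495-119108744 on the plus strand, chr4:43506776-43507025 on the plus strand and chr7:138909507-138909756 on the minus strand. The Ldha window precedes a start 4329 bases inside the GENCODE gene model (chr7:46841475-46855627), which has a further start upstream.

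The Ldha window held matches at 3 places, at -145, -48 and -34 from the start, the first and second of them within a CACGTG palindrome. Pgk1 had a match at -150 on the strand of the gene and another at -131 on the opposite strand, Slc2a1 had 1 at -36, Car9 had 1 at -18 and Bnip3 had a palindrome at -108. The motif ACGTG overlaps the CACGTG box that Myc family proteins bind, so the letters alone do not name a factor. RefSeq windows of 300 bases (250 before and 50 after the start) matched 34 of the 38 members; Bnip3l, Angptl4, Plod2 and Ndrg1 had none. At least 1 match was found in 18 of these 34 windows (52.9%): in 7 of 16 enzymes, 3 of 5 transport and flux genes and 8 of 13 HIF targets. Over all 32851 RefSeq windows the share was 19.6%, and over 9044 protein-coding genes that were tested it was 25.9%. A match describes the letters of the window and does not show binding in these tumours.

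In saline tumours the members' mean levels ran from 5.41 to 4031 rescaled TPM, and glycolytic enzymes held the first 9 places. Gapdh, which makes the first energy-rich phosphate of the pathway, had 4031 ± 625 rescaled TPM (SD, n = 3), and its 3 libraries lay above those of each other member. Aldoa, Ldha and Pkm followed at 2080.2 ± 245, 1955 ± 159 and 1955 ± 92, with ranges that overlapped between neighbours. Eno1, Pgk1 and Tpi1 came next at 1058 ± 92.3, 979.8 ± 169 and 907 ± 23.6, and neighbours in this order overlapped too. Gpi1 at 795 ± 30.8 and Pgam1 at 672 ± 7.54 were each separate from their neighbours. The most abundant HIF target outside glycolysis was Ndrg1 with 491 ± 119, and below it Pfkl, Car9, Bnip3, Slc2a1, Egln3 and Bnip3l formed an overlapping series from 199.8 to 119.7. Pfkfb3 was lowest with 5.41 ± 1.18. The enzymes varied less between saline libraries than the HIF targets, with a median coefficient of variation of 11.7% against 29.9%. Their median level in saline was also higher, at 733 against 62.6 rescaled TPM, and the part of level in this spread was not tested.

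Levels in the tumours given TIS sEV were set against saline for all protein-coding genes in 1 fit. This comparison does not separate receiving any vesicles from their origin in senescent cells. No member passed the limma test with Benjamini-Hochberg adjustment at 0.05, nor did any of the 11444 genes tested (0%), the lowest adjusted p over all genes being 0.0794. Among the members, 12 had an unadjusted p under 0.05 and all 12 were lower in TIS sEV, where 12.6% of all genes tested were lower and 3.03% higher at that level. These were the enzymes Ldha, Pfkl, Gpi1, Hk1, Pkm and Pgk1, the kinase Pdk1 and the HIF targets Kdm3a, Plod2, Egln1, Car9 and P4ha1. The fitted log2 difference was below 0 in 35 of 38 members, against 73.2% of all genes, and below the median gene in 31. The members' median was -0.58 (log2), which is -0.27 relative to the median gene; by group it was -0.49 for the enzymes, -0.43 for the transport and flux genes and -0.79 for the HIF targets. Every TIS sEV library lay below every saline library for 8 of the 38 members, a share close to the 19.6% of all genes. These 8 were Gpi1, Pfkl, Pgam1, Pkm, Ldha, P4ha1, Kdm3a and Plod2. For no member did all TIS sEV libraries lie above saline, against 5.39% of all genes. Adjusted p-values of the members ran from 0.317 to 0.998.

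**Figure D1:**
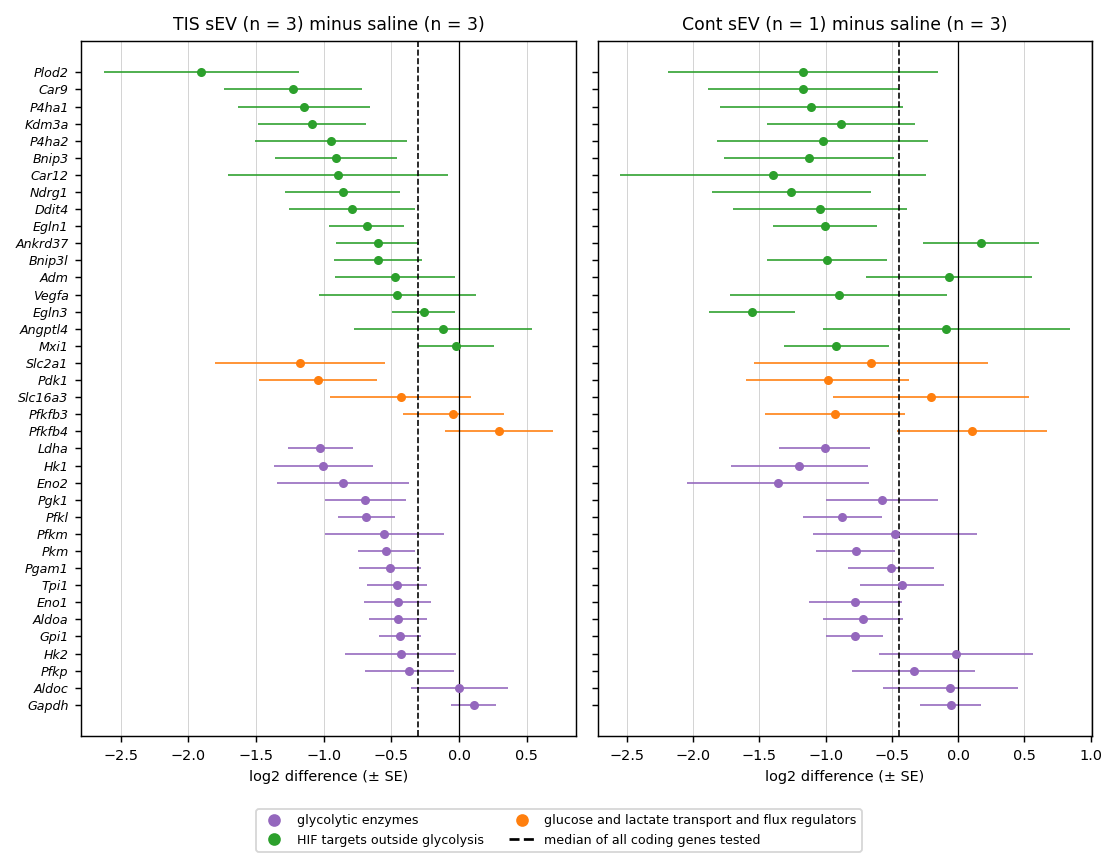
Fitted log2 differences on the log2(rescaled TPM + 1) scale (x axis, with the standard error of the limma fit) for the 38 members (y axis), for TIS sEV against saline on the left and Cont sEV against saline on the right; colours mark the 3 role groups and the dashed line the median of all 11444 genes tested. Of the 17 HIF targets, 14 lie below the dashed line on the left, as do 14 of the 16 enzymes, and no member passed the test in either panel.

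The choice of weights decided whether members were called. When limma estimated a weight for each library, 26 of the 38 members passed at 0.05, all lower in TIS sEV. Calls were widespread in that fit, with 4790 of all 11444 genes tested called. TIS sEV replicate 3 then carried a weight of 5.13, against 0.188 to 2.08 for the other 6 libraries. Without TIS sEV replicate 2, whose ribosomal share was the highest, 0 members were called and 5 had an unadjusted p under 0.05. The 8 members separate from saline in all TIS sEV libraries necessarily stayed separate in replicates 1 and 3. No further member joined them, and their share was close to the 20.9% of all genes. Without TIS sEV replicate 1, 25 members had an unadjusted p under 0.05 and the lowest adjusted p among them was 0.0753. Leaving out TIS sEV replicate 3 gave 4 such members, and leaving out saline replicate 1, 2 or 3 gave 3, 4 and 7. The matching shares of all genes are not given here, so these counts do not set the members apart. The enzyme median relative to the median gene was -0.18; it was -0.26 without TIS sEV replicate 2, -0.11 without saline replicate 1 and -0.28 without TIS sEV replicate 1. Other processing moved it further, to -0.50 with quantile normalization, -0.42 with the library weights, -0.38 with no filter on low values and -0.30 without rescaling. Relative to the median gene, 13 members changed sign in at least 1 alternative: Adm, Aldoa, Angptl4, Ankrd37, Bnip3l, Egln3, Hk2, Mxi1, Pfkm, Pfkp, Slc16a3, Tpi1 and Vegfa.

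The early steps of glycolysis phosphorylate glucose and cut the sugar. Hexokinase 1 (Hk1), which traps glucose in the cell, had 48.2, 74.1 and 73 in saline, 27.3 in Cont sEV and 51.8, 19.5 and 30.4 in TIS sEV. The TIS sEV libraries overlapped saline through replicate 1 alone, and the log2 difference was -1.004 ± 0.37 (SE; adjusted p = 0.317, limma). Hexokinase 2 (Hk2), the inducible form, spanned 52.2 to 70.9 in saline and 22.2 to 66.6 in TIS sEV, where only replicate 2 lay below saline. Gpi1, which turns the glucose phosphate into fructose phosphate, had 829, 769.8 and 785 in saline, 462 in Cont sEV and 618, 536 and 611 in TIS sEV. Its 3 TIS sEV libraries were close together and all below saline, with a log2 difference of -0.44 ± 0.15 (adjusted p = 0.317).

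Phosphofructokinase makes the committed step of the pathway. Its liver-type subunit Pfkl had 180.0, 217 and 202 in saline, 108 in Cont sEV and 153, 101 and 121 in TIS sEV. No TIS sEV library reached the lowest saline library, and the log2 difference was -0.69 ± 0.21 (adjusted p = 0.317). The muscle-type subunit Pfkm, far lower, had 14.6, 15.7 and 26.5 in saline, 12.9 in Cont sEV and 21.2, 6.23 and 13.1 in TIS sEV, with overlapping groups and a difference of -0.55 ± 0.44 (adjusted p = 0.474). The platelet-type subunit Pfkp spanned 39.9 to 49.8 in saline and 25.1 to 58.8 in TIS sEV. The aldolase Aldoa, which splits the fructose bisphosphate, had 2198, 2244 and 1799 in saline, 1258 in Cont sEV and 1998, 1421 and 1224 in TIS sEV. TIS sEV replicate 1 lay within saline and the other two below it, for a difference of -0.45 ± 0.21 (adjusted p = 0.323). The brain-type aldolase Aldoc had a difference of 0.00 ± 0.36, with overlapping groups.

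The later steps of glycolysis gain ATP and end in pyruvate and lactate. Gapdh, often used as a reference gene, had 4752, 3695 and 3647 in saline, 3848 in Cont sEV and 4698, 4353 and 3919 in TIS sEV. All TIS sEV values lay within the saline range, and the log2 difference was 0.11 ± 0.16 (adjusted p = 0.703), which is 0.41 above the median gene. Pgk1, which makes the first ATP, had 1108, 1043 and 788 in saline, 650.2 in Cont sEV and 939.8, 554 and 414 in TIS sEV. Replicate 1 of TIS sEV lay within saline and replicates 2 and 3 below it, with a difference of -0.69 ± 0.30 (adjusted p = 0.319). Gapdh and Pgk1 catalyse consecutive steps, yet their fitted differences were 0.11 and -0.69; the difference between them was not tested.

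Pgam1, which moves the phosphate group within phosphoglycerate, had 672, 664 and 679 in saline, 472 in Cont sEV and 657, 435 and 365 in TIS sEV. The saline libraries were almost equal, and TIS sEV replicate 1 came within a few units of them, so the separation of the groups was narrow (log2 -0.51 ± 0.23, adjusted p = 0.321). Tpi1 and Eno1, the triose isomerase and the main enolase, had differences of -0.46 ± 0.22 and -0.45 ± 0.25, with TIS sEV replicate 1 within saline for both. Eno1 is uncertain, since Eno1b, a near-identical copy with 429.8 to 474 in saline and 291 to 506 in TIS sEV, can share its reads. Eno2, the neuronal enolase, had 28, 26.5 and 13.1 in saline, 7.71 in Cont sEV and 22.3, 5.84 and 10.8 in TIS sEV. Its groups overlapped and the difference was -0.86 ± 0.49 (adjusted p = 0.359).

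Pyruvate kinase (Pkm), which makes pyruvate and the second ATP, had 1851, 2026 and 1987 in saline, 1142 in Cont sEV and 1830.1, 1104 and 1206 in TIS sEV. TIS sEV replicate 1 lay just under the lowest saline library and the other two far below (log2 -0.54 ± 0.21, adjusted p = 0.317). Lactate dehydrogenase A (Ldha), which reduces pyruvate to lactate, had 1880.1, 2138 and 1846 in saline, 970.0 in Cont sEV and 1387, 734 and 862 in TIS sEV. All TIS sEV libraries were below saline with a clear gap, and so was Cont sEV. Its log2 difference of -1.03 ± 0.24 had the lowest p among the members (adjusted p = 0.317), and it was -0.72 relative to the median gene, or -0.70 without TIS sEV replicate 2. Summed, the 16 enzymes took 1.49% ± 0.0948 of the protein-coding total in saline and 1.18% ± 0.251 in TIS sEV (SD, n = 3 each), with 1.57%, 1.51% and 1.39% in the saline libraries, 1.04% in Cont sEV and 1.47%, 1.06% and 1.01% in TIS sEV. Of the vesicle libraries, only TIS sEV replicate 1 was within the saline range.

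**Figure D2:**
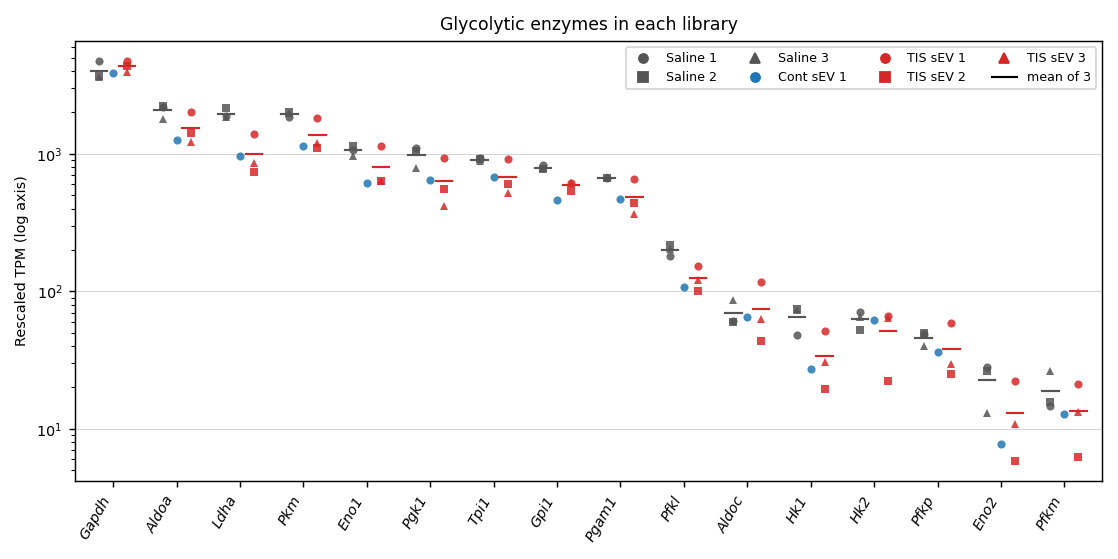
Rescaled TPM (y axis, log scale) of the 16 glycolytic enzymes (x axis, ordered by their saline mean) in each library, with short lines at the means of 3 saline and of 3 TIS sEV libraries; colours mark the groups and shapes the replicate numbers. Ldha at 1846 to 2138 in saline and 734 to 1387 in TIS sEV shows the widest gap among the abundant enzymes, while the Gapdh points overlap.

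The genes around the pathway control entry, exit and flow. Slc2a1, the glucose transporter GLUT1, had 159.9, 187 and 125 in saline, 97.9 in Cont sEV and 176, 22.8 and 77.9 in TIS sEV. TIS sEV replicate 2 was far lower than the other libraries and replicate 1 lay within saline; the difference of -1.18 ± 0.63 (adjusted p = 0.343) went from -0.87 to -0.27 relative to the median gene without replicate 2. Slc16a3, the lactate exporter MCT4, had 16.8, 20.2 and 17.9 in saline, 15.7 in Cont sEV and 15.8, 4.99 and 28 in TIS sEV. Its lowest and its highest value both came from TIS sEV, and without replicate 2 its value relative to the median gene turned from -0.13 to 0.34.

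Pdk1, a kinase that inhibits pyruvate dehydrogenase and so the conversion of pyruvate to acetyl-CoA in mitochondria, had 15.6, 16.8 and 17.7 in saline, 7.93 in Cont sEV and 16.5, 5.4 and 4.59 in TIS sEV. Replicate 1 of TIS sEV matched saline and replicates 2 and 3 were far below it, for a difference of -1.04 ± 0.44 (adjusted p = 0.317). Pfkfb3 and Pfkfb4 make the sugar phosphate that activates phosphofructokinase. Pfkfb3 had 6.39, 5.73 and 4.11 in saline, 2.33 in Cont sEV and 7.32, 2.66 and 6.64 in TIS sEV, and Pfkfb4 had 7.48, 8.43 and 9.52 in saline, 9.16 in Cont sEV and 18.8, 5.78 and 10.6 in TIS sEV. Both overlapped between groups, with differences of -0.04 ± 0.37 and 0.30 ± 0.40 (adjusted p = 0.953 and 0.66).

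Of the 17 HIF targets outside glycolysis, all had fitted differences below 0 and 14 lay below the median gene, with a median of -0.49 relative to it. The size of that median depended on single libraries. It was -0.16 without TIS sEV replicate 3, -0.23 without saline replicate 1 and -0.38 without TIS sEV replicate 2. Plod2, P4ha1 and P4ha2 encode hydroxylases that mature collagen. Plod2, a lysyl hydroxylase, had 45.5, 26.9 and 29.2 in saline, 14.1 in Cont sEV and 19.6, 1.47 and 13.7 in TIS sEV. TIS sEV replicate 2 was close to the minimum of 1 set for testing, and the others were also below saline, so that the difference of -1.90 ± 0.72 (adjusted p = 0.317) became -0.83 in place of -1.60 relative to the median gene without replicate 2. P4ha1, a subunit of prolyl hydroxylase, had 100.0, 76.8 and 84.9 in saline, 39.7 in Cont sEV and 72.7, 15.9 and 48.9 in TIS sEV. No TIS sEV library reached saline, with replicate 2 again the lowest of all 7 (log2 -1.15 ± 0.49, adjusted p = 0.317, and -0.39 in place of -0.84 relative to the median gene without it). Its paralogue P4ha2 had 19.4, 8.28 and 10.6 in saline, 5.39 in Cont sEV and 11.5, 1.84 and 7.57 in TIS sEV, and overlapped (log2 -0.95 ± 0.56, adjusted p = 0.375).

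The carbonic anhydrases Car9 and Car12 turn carbon dioxide into bicarbonate and protons at the cell surface. Car9, a common marker of hypoxic tumour tissue, had 267, 169.6 and 132 in saline, 80.1 in Cont sEV and 149, 33.8 and 89.6 in TIS sEV. TIS sEV replicate 1 lay between the second and the third saline library, and the other vesicle libraries below saline (log2 -1.23 ± 0.51, adjusted p = 0.317). Car12 had the largest standard error, with 7.56 to 29.2 in saline and 2.46 to 26.6 in TIS sEV (log2 -0.90 ± 0.82). Bnip3 and Bnip3l direct mitochondria to autophagy. Bnip3 had 234, 200.5 and 74.2 in saline, 68.8 in Cont sEV and 112, 86 and 53.8 in TIS sEV. Saline replicate 3 was far under the other saline libraries and within the TIS sEV range, and the difference was -0.91 ± 0.45 (adjusted p = 0.33). For Bnip3l it was -0.60 ± 0.32.

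The oxygen sensors Egln1 and Egln3 hydroxylate the HIF alpha subunit and are themselves HIF targets. Egln1 spanned 52 to 72.4 in saline and 28.8 to 53.7 in TIS sEV, with a difference of -0.68 ± 0.28 (adjusted p = 0.317). Egln3 spanned 134 to 146 and 85.5 to 142, with a difference of -0.26 ± 0.23 (adjusted p = 0.512). Kdm3a, a histone demethylase, had 28.6, 24.8 and 20.3 in saline, 12.7 in Cont sEV and 20.1, 6.31 and 10 in TIS sEV. Its highest TIS sEV library fell just short of the lowest saline library, so the groups were separate by a small margin (log2 -1.09 ± 0.40, adjusted p = 0.317). Mxi1, an antagonist of Myc, had a difference of -0.02 ± 0.28.

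Ndrg1, a stress-induced gene long known to respond to hypoxia, had 609.7, 491 and 372 in saline, 201 in Cont sEV and 527, 232 and 152 in TIS sEV. TIS sEV replicate 1 was within saline and replicates 2 and 3 below it (log2 -0.86 ± 0.42, adjusted p = 0.328). The secreted factors overlapped between groups: Vegfa, which drives vessel growth, at -0.46 ± 0.58, Adm, the vasodilator adrenomedullin, at -0.48 ± 0.44, and Angptl4, an inhibitor of lipoprotein lipase, at -0.12 ± 0.66. Ddit4, an inhibitor of mTORC1 signalling, had -0.79 ± 0.46, with saline replicate 3 at 136 against 43 and 60.9 in the other two. Ankrd37, an ankyrin-repeat gene, had -0.60 ± 0.31.

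**Figure D3:**
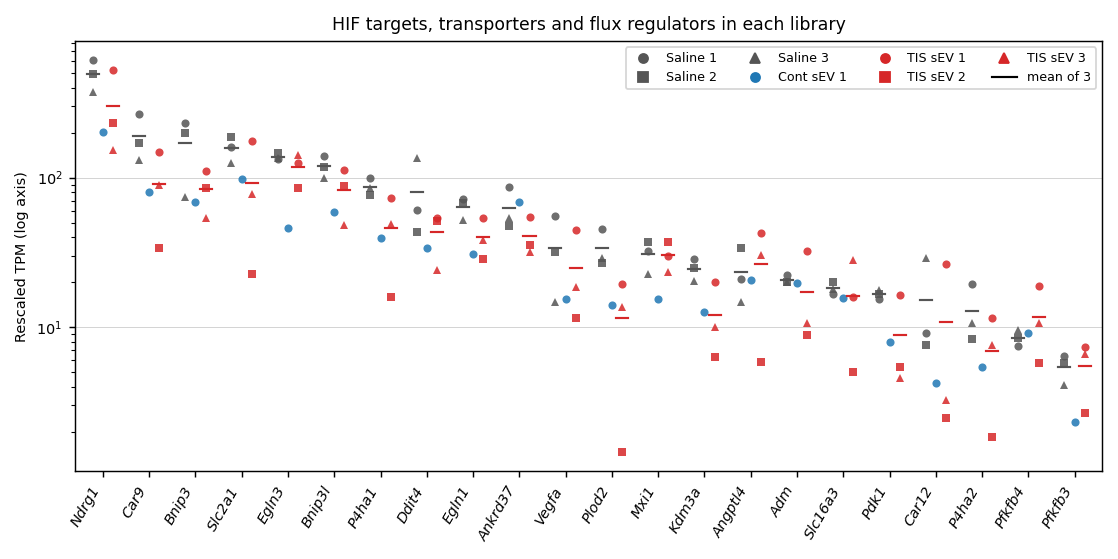
Rescaled TPM (y axis, log scale) of the 17 HIF targets outside glycolysis and the 5 transport and flux genes (x axis, ordered by saline mean) in each library, with short lines at the means of 3 libraries. TIS sEV replicate 2 (red square) is the lowest point for Plod2 at 1.47, Slc2a1 at 22.8 and Car9 at 33.8.

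Vesicle libraries of the same group differed from one another. TIS sEV replicate 1 was the highest TIS sEV library in 35 of 38 members (62.7% of all genes), the exceptions being Slc16a3, Egln3 and Mxi1, and it lay within the saline range in 22 (48.7% of all genes). Replicates 2 and 3 were both below every saline library in 26 members (45.8% of all genes), 13 of them enzymes. Replicate 2 was the lowest of the 7 libraries in 22 (46.5% of all genes). The median enzyme stood at -0.013, -0.81 and -0.72 (log2) from the saline mean in TIS sEV replicates 1, 2 and 3, where the median gene stood at -0.017, -0.60 and -0.28. The median HIF target stood at -0.14, -1.14 and -0.90. Among saline libraries the HIF targets were at 0.22, 0.0025 and -0.25, so that saline replicate 1 was the highest and replicate 3 the lowest.

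**Figure D4:**
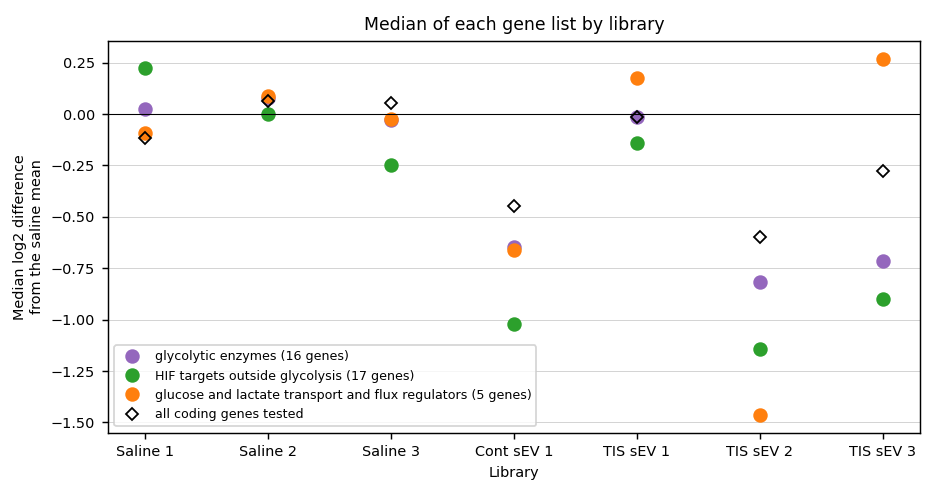
Median log2 difference from the saline mean (y axis) over the members of each role group in each of the 7 libraries (x axis), with the median of all protein-coding genes tested as open diamonds. HIF targets lie under the diamond in all libraries but saline replicate 1, by the most in TIS sEV replicate 3, at -0.90 against -0.28; saline replicate 3, at -0.25 against 0.054, lies further under it than TIS sEV replicate 1, at -0.14 against -0.017.

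Markers of several cell types differed between the libraries, and their part in the results was not tested. Summed epithelial markers ranged from 2564 to 5697 in saline and 1925 to 3859 in TIS sEV, with 3662 in Cont sEV, and 7 of the 8 had fitted differences below 0 in TIS sEV against saline, with a median of -0.34 relative to the median gene. In Cont sEV against saline that median was 0.77 above the median gene, while the members' median was 0.43 below it. Saline replicate 1 had the lowest epithelial sum of its group and the highest member sum (17884). TIS sEV replicate 3 had the highest epithelial sum of its group, with 1816 from Krt8 alone, and the lowest member sum (10967). The epithelial median log2 difference from the saline mean was -0.55, 0.033 and 0.48 in saline. It was 0.33 in Cont sEV and 0.26, -1.16 and -1.32 in TIS sEV. For all members it was 0.083, 0.028 and -0.13 in saline, -0.88 in Cont sEV and -0.038, -1.01 and -0.78 in TIS sEV. Within TIS sEV both were highest in replicate 1, and within saline their orders were opposite. Summed fibroblast markers were 245, 169 and 80.3 in saline, 71.5 in Cont sEV and 119, 86.3 and 135 in TIS sEV. Their median log2 difference from the saline mean was 0.74, 0.21 and -0.63 in saline, -1.01 in Cont sEV and -0.32, -0.88 and -0.17 in TIS sEV, against 0.22, 0.0025 and -0.25, -1.02, and -0.14, -1.14 and -0.90 for the HIF targets. Both had the same order within saline and were low in Cont sEV, whereas in TIS sEV replicate 3 the HIF targets were far lower than the fibroblast markers. Summed adipocyte markers ranged from 22.6 to 31.9 in saline and 14.1 to 249 in TIS sEV, the high value being replicate 2, where Cfd had 132 and Adipoq 8.82 and Lep was listed at 0. Summed neutrophil markers ranged from 1636 to 10767 in saline, with replicate 1 the highest, were 884 in Cont sEV and ranged from 2667 to 3436 in TIS sEV. Summed skeletal muscle markers, from a tissue rich in Pfkm, were 76.9 in saline replicate 3 and 4.91 to 12.4 elsewhere, and Pfkm was highest in that library; Ckm and Myh4 were at 0 in several of the others.

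Transcript length also moved with the group difference. Over all tested genes the median log2 difference between TIS sEV and saline was -0.024 in the shortest length class (255 to 2245 bases), -0.35 in the middle and -0.51 in the longest. The members' medians in these classes were -0.56 for 12 genes, -0.60 for 17 and -0.43 for 9. In the shortest class, which holds Ldha, Pgk1 and Pgam1, the members' median lay well below that of all genes, while in the longest it lay slightly above. With the length trend removed from each library, an alternative chosen after seeing the data, the enzymes had a median of -0.27 and the HIF targets one of -0.53, both relative to the median gene, with 0 members called.

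The single Cont sEV tumour was set against the same 3 saline libraries, and the fit assumed that it varies like the others. No member and no gene passed (0%; lowest adjusted p over all genes 0.301). At an unadjusted p under 0.05, 9 members were lower and 0 higher, where 13.9% and 1.65% of all genes were. They were the enzymes Hk1, Gpi1, Pfkl, Aldoa, Pkm and Ldha and the HIF targets Egln1, Egln3 and Mxi1. The Cont sEV value was below every saline library in 31 of 38 members, against 63.5% of all genes; the exceptions were Hk2, Aldoc, Gapdh, Pfkfb4, Vegfa, Ankrd37 and Angptl4. Differences were -1.01 ± 0.34 for Ldha, -0.78 ± 0.22 for Gpi1, -1.17 ± 1.02 for Plod2 and -1.17 ± 0.72 for Car9, beside -1.03, -0.44, -1.90 and -1.23 in TIS sEV. Egln3 stood at 46.4 in Cont sEV against 134 to 146 in saline, a difference of -1.56 ± 0.33 (adjusted p = 0.301). Fitted differences were below 0 in 36 of 38 members (77.7% of all genes), and the medians were -0.65 for the enzymes and -1.02 for the HIF targets, or -0.20 and -0.58 relative to the median gene.

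TIS sEV was also set against Cont sEV, the comparison in which both groups received vesicles. No member and no gene passed (0%; lowest adjusted p 0.995). At an unadjusted p under 0.05, 1 member was higher in TIS sEV and 0 lower, against 3.1% and 0.804% of all genes, or 3.91% in either direction. That member was Egln3, at 126, 85.5 and 142 in TIS sEV and 46.4 in Cont sEV (log2 1.29 ± 0.33, adjusted p = 0.995). Ldha differed by -0.019 ± 0.34 and Pgk1 by -0.12 ± 0.42. The median over the 38 members was 0.12 where that of all genes was 0.15, and 17 members were below 0 (35.4% of all genes). A single Cont sEV library stands behind this comparison, and a p that misses the threshold does not show that the groups were alike.

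Ratios of paralogues within a library hardly depend on its scaling, and 14 pairs were tested, with 0.1 added to both values, between saline and TIS sEV with an exact two-sided permutation test, which cannot go below p = 0.1 with 3 against 3. Only 2 pairs reached that smallest p, and after adjustment over the 14 pairs no value was below 0.509. The ratio of Ldha to Ldhb, the heart-type subunit that favours the oxidation of lactate, was 378, 629 and 531 in saline, 116 in Cont sEV and 234, 125 and 126 in TIS sEV. All TIS sEV values were below saline (log2 -1.70, exact p = 0.1), but Ldhb itself was low, at 3.4 to 4.97 in saline and 5.87 to 6.84 in TIS sEV. The ratio of Slc16a3 to Slc16a1, the more widespread lactate transporter MCT1, was 0.256, 0.196 and 0.197 in saline, 0.325 in Cont sEV and 0.298, 0.722 and 0.593 in TIS sEV. All TIS sEV values were above saline (log2 1.23, exact p = 0.1), and Slc16a1 itself had 65.8, 103 and 90.8 in saline, 48.3 in Cont sEV and 53.2, 6.9 and 47.2 in TIS sEV. The ratio of Pdk1 to Pdk3 was 0.524, 0.568 and 0.727 in saline, 0.361 in Cont sEV and 0.608, 0.185 and 0.196 in TIS sEV, with replicate 1 of TIS sEV inside the saline range (exact p = 0.3). The ratio of Hk2 to Hk1 overlapped (exact p = 0.3), as did that of Eno2 to Eno1 (exact p = 0.4).

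**Figure D5:**
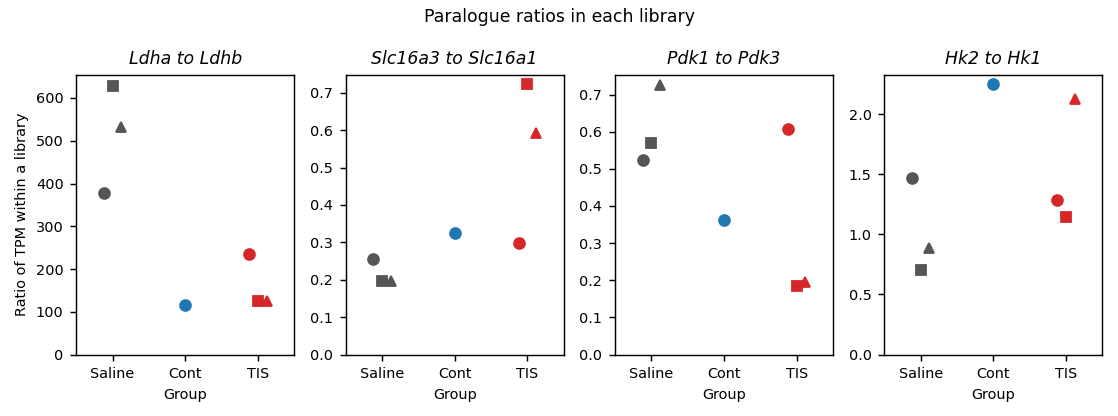
Ratio of rescaled TPM between 2 paralogues within each library (y axis, linear from 0) for 4 of the 14 pairs, with the 3 groups on the x axis and each library as 1 point. TIS sEV lies below saline for Ldha to Ldhb, at 125 to 234 against 378 to 629, and above it for Slc16a3 to Slc16a1, at 0.298 to 0.722 against 0.196 to 0.256.

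The machinery that controls HIF was described by 16 genes, of which 14 were tested. No gene of this or the other pathway lists passed the test in TIS sEV against saline. Hif1a, the main oxygen-regulated alpha subunit, had 23.4, 27.7 and 17.8 in saline, 9.73 in Cont sEV and 16, 7.32 and 10.1 in TIS sEV. Every vesicle library was below saline (log2 -1.02 ± 0.33, adjusted p = 0.317). Epas1, which encodes HIF2-alpha and is prominent in endothelial cells and macrophages, had 3.11, 3.92 and 2.08 in saline, 1.63 in Cont sEV and 5.26, 11.9 and 7.4 in TIS sEV. The TIS sEV libraries were all above saline while Cont sEV was below it (log2 1.15 ± 0.35, adjusted p = 0.317), opposite in sign to Hif1a at low levels. Summed endothelial markers were 61.6 to 82.9 in saline, 55.6 in Cont sEV and 27.1 to 138 in TIS sEV, where Epas1 was highest in replicate 2 and the markers in replicate 3. Summed macrophage and monocyte markers were 472 to 1042 in saline, 774 in Cont sEV and 566 to 1219 in TIS sEV, with a median of 0.094 relative to the median gene and 5 of the 8 below 0. Of these, Mrc1 and Cd68 were picked after their values were seen, so they do not stand for the list. Mrc1 had 32.3, 103 and 22.7 in saline, 49.5 in Cont sEV and 62.7, 105 and 80.8 in TIS sEV, and Cd68 had 49, 108 and 52.3 in saline, 42.5 in Cont sEV and 94.6, 128 and 87.4 in TIS sEV. Both were highest in replicate 2 within saline and within TIS sEV, as Epas1 was. The sum of the whole macrophage and monocyte list was highest in replicate 2 within saline. Within TIS sEV that sum was highest in replicate 3, at 1219 against 1078 in replicate 2. The part of either cell type in the Epas1 levels was not tested. Vhl, the ubiquitin ligase subunit that recognises hydroxylated HIF, had 15, 15 and 17.3 in saline, 33.9 in Cont sEV and 16.9, 12.4 and 30.9 in TIS sEV, with the highest values in Cont sEV and TIS sEV replicate 3 (log2 0.24 ± 0.34). Siah1a, a ubiquitin ligase acting on the oxygen sensors, had a difference of -0.79 ± 0.39. Of the 14 genes tested in this list, 3 lay below saline in every TIS sEV library and 2 above, against 19.6% and 5.39% of all genes. The median of the list was 0.085 relative to the median gene.

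Neighbouring pathways had their own lists. Of 24 other glycolytic isoforms and transporters, 14 were tested and 6 had differences below 0, with a median of 0.44 relative to the median gene; Slc16a1 stood at -1.65 ± 0.67, the hexokinase Hk3 of myeloid cells at 0.69 ± 0.31, Fbp1, which reverses the phosphofructokinase step, at 0.61 ± 0.34, and the neuronal glucose transporter Slc2a3 at -0.06 ± 0.33. Of 15 genes of the pentose phosphate and glycogen pathways, 14 were tested, 10 were below 0 and the median was 0.17 relative to the median gene. The glycogen synthase Gys1 had 19.8, 20.3 and 21.4 in saline, 8.98 in Cont sEV and 15.2, 5.08 and 11.4 in TIS sEV (log2 -1.01 ± 0.38, adjusted p = 0.317), the epimerase Rpe had -0.65 ± 0.27 and the phosphoglucomutase Pgm1 -0.61 ± 0.29.

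Of 23 genes of pyruvate dehydrogenase and the citric acid cycle, 22 were tested, 17 were below 0 and the median was 0.016 relative to the median gene. Dld, the dehydrogenase subunit shared by the pyruvate and oxoglutarate complexes, had 59.8, 70.6 and 57.1 in saline, 41.6 in Cont sEV and 42.1, 27.2 and 30.7 in TIS sEV. All vesicle libraries were below saline (log2 -0.91 ± 0.24, adjusted p = 0.317). Dlat, the acetyl transferase subunit, had -0.87 ± 0.39. Pdha1 and Sucla2 were also below saline in every TIS sEV library (-0.62 ± 0.23 and -0.29 ± 0.21). Suclg1, a subunit of succinyl-CoA ligase, went the other way with 33.9, 35.3 and 50.7 in saline, 50.5 in Cont sEV and 53.4, 55.8 and 66 in TIS sEV, every TIS sEV library being above saline (log2 0.55 ± 0.24, adjusted p = 0.317), as it was for the fumarate hydratase gene Fh1 (0.24 ± 0.19). Of the 22 tested, 3 lay below saline in every TIS sEV library and 2 above, against 19.6% and 5.39% of all genes. Pdk4 was under 1 in all libraries and was not tested. Of 10 genes of the amino acid stress response, which shares Ddit4 as a target, 5 were below 0 and 4 below the median gene, with a median of 0.17 relative to it. Its regulator Atf4 had 0.00 ± 0.21. The others ran from -0.51 ± 0.40 for Trib3, -0.49 ± 0.29 for Sesn2 and -0.41 ± 0.31 for Slc7a11 to 0.15 ± 0.36 for Ddit3, 0.18 ± 0.32 for Phgdh and 0.31 ± 0.31 for Atf3.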

How the data were processed

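RNA of 7 tumour samples was measured. The authors deposited 1 table of gene TPM values, each column summing to 1000000; reads were handled with Salmon 1.4.0, DESeq2 1.28.0, Trim Galore 0.6.6 and FastQC 0.11.9 on build GRCm38.p6, per the submitters' processing notes. The annotation used for it is not given in the sources used here. Symbols, gene types and coordinates came from GENCODE M21, which held 55227 of the 55487 identifiers, and promoter windows from RefSeq.

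TPM were rescaled to the sum of 21961 nuclear protein-coding genes. Genes at 1 or more in at least 3 libraries were tested with limma 3.58.1 (R 4.3.3, intensity trend, 1 mean per group, 4 residual degrees of freedom) on log2(value + 1), two-sided, adjusted by Benjamini-Hochberg; fold changes of low genes are understated on it. The script was tested on simulated data. Alternatives changed scaling, filter, pseudocount, weights, block and replicates.

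The members and lists were chosen with earlier results of these data known. Library values were printed for members with the largest differences, the highest saline levels or separate groups, and for the transport and flux genes. A result on a further pathway gene is not reported here. Reads of near-identical copies (Eno1 and Eno1b, Pgk1 and Pgk1-rs7, Pgam1 and Pgam1-ps2) could be split by the quantification, and a further Aldoa identifier (at most 1.22) was left out.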

Additional observations from a re-analysis of the deposited data

How the results depend on the processing

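For TIS sEV against saline, 23 genes were called on deposited TPM without rescaling, 1 with no filter, 4790 with library weights and 3 with the replicate number as a block; leaving out 1 library gave 0 to 1. For Cont sEV against saline the counts were 8 without rescaling, 2 over all gene types, 51 with no filter and 3210 with weights, and for TIS sEV against Cont sEV 4, 2, 48 and 16, with 0 to 1 when a library was left out. Members called numbered 26 of 38 with weights, where 4790 of all 11444 genes tested were called, and 0 in each other setting. The enzyme median relative to the median gene (-0.18) was -0.50 with quantile normalization, -0.38 with no filter and -0.42 with weights; the HIF target median (-0.49) was -0.16 without TIS sEV replicate 3 and -0.23 without saline replicate 1. The cause of these moves was not tested.

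Deviations of same-numbered saline and TIS sEV libraries correlated at -0.29, -0.018 and -0.050, and those of differently numbered ones at -0.16 to 0.24. With 3 libraries in each group, these values cannot exclude a pairing of the samples. With the replicate block, 0 members were called. The number of ratios at the smallest p was 2 with 3 libraries against 3, 5 with the replicate block, where that p is 0.25, and 2 to 7 with a library left out; since the smallest p differs between these designs, the counts cannot be compared.

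Of the members' values relative to the median gene, 667 kept direction and side, 26 passed the threshold with weights and 29 changed sign. Without 1 library the sign changed, over the ranges given, for Adm (-0.56 to 0.039), Aldoa (-0.27 to 0.0087), Angptl4 (-0.19 to 0.83), Ankrd37 (-0.50 to 0.021), Bnip3l (-0.55 to 0.052), Egln3 (-0.11 to 0.13), Hk2 (-0.37 to 0.21), Mxi1 (-0.046 to 0.45), Pfkm (-0.47 to 0.016), Pfkp (-0.27 to 0.057), Slc16a3 (-0.63 to 0.34), Tpi1 (-0.26 to 0.016) and Vegfa (-0.66 to 0.35). With other settings it changed for Angptl4 (-0.015 with no filter), Egln3 (-0.10 without rescaling), Egln3 (-0.16 with quantile normalization), Egln3 (-0.16 with no filter), Hk2 (0.37 with weights), Hk2 (0.074 with the length trend removed), Mxi1 (-0.076 with weights), Pfkp (0.085 with the length trend removed), Slc16a3 (0.73 with weights), Slc16a3 (0.031 with the length trend removed). Depth is unknown, so its limit cannot be given.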
